A study of Mus musculus with 10 samples.

Results

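TRBV2, TRBV3, TRBV4 and TRBV5 are the 4 V gene segments of the mouse T cell receptor beta locus that lie together far upstream of the D and J segments. Receptors built from them were taken from the clonotype tables of all 10 libraries as entries with one of these V names and a CDR3 that ends as a beta J segment does, with 10 such ends accepted. The rule gave 37225 clonotypes of 193000 TRB clonotypes, of which 6151 used TRBV2, 12194 TRBV3, 6280 TRBV4 and 12600 TRBV5. A clonotype was a distinct combination of V gene, J gene and CDR3 nucleotides within a library. The requirement of a beta end matters for these genes, because another 275962 counts carried a TRBV2 to TRBV5 name but no beta end, 223491 of them named TRBV3, and were left out.

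The libraries came from regulatory T (Treg) cells taken from mouse spleen, used directly and without treatment. The 5 CNS4KO libraries were from mice deficient in CNS4, an enhancer of the Foxp3 gene, and the 5 CNS4Flox libraries from mice with the floxed CNS4 element. The labels used here do not give the age or sex of the animals, the Cre driver, or whether each library is a separate animal, so the p-values measure only the spread between these libraries. Only TCR transcripts were amplified, so neither the deletion nor the Treg label could be checked against Foxp3 or other marker genes.

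A beta chain is assembled in the thymus from a V, a D and a J segment. The V segment encodes the CDR1 and CDR2 loops, which mostly contact the MHC molecule, while the CDR3 loop spans the V, D and J junctions, where bases are trimmed and non-templated bases are added, and mostly contacts the peptide. Foxp3 is the transcription factor that defines Treg cells, and its enhancers act to start or maintain its expression. In the older nomenclature TRBV2 encodes Vβ4, TRBV3 Vβ16, TRBV4 Vβ10 and TRBV5 Vβ1.

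In the RefSeq annotation of GRCm38 (mm10) the 4 segments lie on chromosome 6, TRBV2 at chr6:41047556-41047995, TRBV3 at chr6:41048394-41048824, TRBV4 at chr6:41059443-41059886 and TRBV5 at chr6:41062359-41062803. All are annotated as V segments. TRBV1 is the only TRBV segment that the tables name further upstream, at chr6:40891296-40891885, and TRBV12-1 at chr6:41113567-41114067 is the next one downstream.

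The 3′ end of each V segment forms the first part of the CDR3, and it is shown because the 4 genes differ in it. Bases after the 12 that all 4 genes share are in capitals, and each base shown was the same in at least 90% of the clonotypes whose V match reached it.
TRBV2: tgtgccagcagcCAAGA
TRBV3: tgtgccagcagcTTAGC
TRBV4: tgtgccagcagcTA
TRBV5: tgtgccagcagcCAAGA

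The V parts of TRBV2 and TRBV5 were identical, so a CDR3 alone does not tell these genes apart. The V match ran through all bases shown in 39.8% ± 1.66 of TRBV2 clonotypes and 40.4% ± 1.02 of TRBV5 clonotypes, but in 5.47% ± 0.519 of TRBV3 clonotypes and 18.2% ± 2.14 of TRBV4 clonotypes (SD, n = 10 libraries).

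The clonotypes shown for clone size are, for each gene and group, the amino acid clonotype with the highest share of a library's TRB counts, in its most frequent nucleotide form. For TRBV3 in CNS4KO this was a clonotype of 10 counts in replicate 2, while replicate 4, a deeper library, held one of 12 counts. Capitals mark the bases between the V match and the J match.
TRBV4 with TRBJ1-1, CNS4KO: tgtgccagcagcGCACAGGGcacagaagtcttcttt
TRBV4 with TRBJ1-3, CNS4Flox: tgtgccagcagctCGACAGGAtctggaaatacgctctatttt
TRBV2 with TRBJ2-5, CNS4KO: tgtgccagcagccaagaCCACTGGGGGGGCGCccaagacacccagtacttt
TRBV2 with TRBJ2-5, CNS4Flox: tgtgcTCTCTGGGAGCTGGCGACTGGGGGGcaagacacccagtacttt
TRBV3 with TRBJ2-7, CNS4KO: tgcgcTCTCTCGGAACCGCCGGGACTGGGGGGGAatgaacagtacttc
TRBV3 with TRBJ2-7, CNS4Flox: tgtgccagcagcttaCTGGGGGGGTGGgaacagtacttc
TRBV5 with TRBJ2-7, CNS4KO: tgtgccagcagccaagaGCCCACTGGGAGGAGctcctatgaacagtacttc
TRBV5 with TRBJ1-1, CNS4Flox: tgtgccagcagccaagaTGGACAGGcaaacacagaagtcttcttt

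The clonotypes that recurred most across libraries are shown next, with capitals as above. For each gene the amino acid clonotype found in the most libraries is shown in its most frequent nucleotide form.
TRBV2 with TRBJ2-7: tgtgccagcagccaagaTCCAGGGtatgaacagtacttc
TRBV3 with TRBJ1-1: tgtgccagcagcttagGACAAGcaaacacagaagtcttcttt
TRBV4 with TRBJ2-7: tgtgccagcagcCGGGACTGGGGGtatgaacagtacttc
TRBV5 with TRBJ1-1: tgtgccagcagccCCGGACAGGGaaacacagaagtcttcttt

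TRB depth was 19199 to 34833 counts in the CNS4KO libraries and 20854 to 32979 counts in the CNS4Flox libraries, with 13781 to 23062 and 17340 to 24496 TRB clonotypes. Counts per TRB clonotype were 1.39 to 1.68 in CNS4KO and 1.16 to 1.35 in CNS4Flox. At this depth the 95% Wilson interval of a gene's share of counts in a library extended 0.171 to 0.332 percentage points to either side, which covers counting error only. CNS4KO replicate 5 and CNS4Flox replicate 3 stood apart, because they shared 129 nucleotide clonotypes of the 4 genes, whereas the other 44 pairs of libraries shared 15 to 54 (median 29). Values of the 4 genes that turned direction with both libraries left out are also given without them.

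Together the 4 genes took 17.9% ± 1.94 of the counts in CNS4KO libraries and 17.8% ± 1.02 in CNS4Flox libraries, and 19.6% ± 1.85 of the clonotypes in CNS4KO libraries and 18.9% ± 1.13 in CNS4Flox libraries (SD over 5 libraries). The sum ranged over 15.6% to 20.3% of counts in the CNS4KO libraries and 16.1% to 18.6% in the CNS4Flox libraries, so the CNS4Flox range lay inside the CNS4KO range. Within the sum, TRBV3 and TRBV5 were common and TRBV2 and TRBV4 less so. Averaged over the 10 libraries, TRBV5 held 6.49% ± 0.568 of TRB clonotypes and ranked 3 among 22 TRBV genes, TRBV3 held 6.35% ± 0.90 and ranked 4, TRBV4 held 3.23% ± 0.344 and ranked 16, and TRBV2 held 3.19% ± 0.465 and ranked 17. TRBV3 exceeded TRBV5 in 4 of 10 libraries and TRBV2 exceeded TRBV4 in 4 of 10, so the order within each of these neighbouring pairs changed between libraries. TRBV3 and TRBV5 each exceeded TRBV2 and TRBV4 in all 10 libraries by clonotypes. By counts TRBV5 ranked 5, TRBV3 ranked 8, TRBV4 ranked 14 and TRBV2 ranked 16, and TRBV4 exceeded TRBV5 in 1 of 10 libraries.

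TRBV2 held 3.50%, 2.36%, 3.80%, 3.33% and 2.84% of TRB counts in CNS4KO replicates 1 to 5, against 2.35%, 2.84%, 2.58%, 3.06% and 3.44% in CNS4Flox replicates 1 to 5. Its share of clonotypes was 4.03%, 2.60%, 3.21%, 3.77% and 3.20% in CNS4KO, against 2.55%, 3.10%, 2.89%, 3.18% and 3.36% in CNS4Flox. CNS4KO held both of the highest values by clonotypes, but the groups overlapped. The log2 fold change, CNS4KO over CNS4Flox, was 0.15 (SE 0.14) by counts and 0.16 (SE 0.11) by clonotypes, with adjusted p-values of 0.746 and 0.397 in edgeR's quasi-likelihood test.

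TRBV3 held 5.48%, 4.53%, 6.70%, 5.49% and 5.05% of TRB counts in CNS4KO, against 4.79%, 5.80%, 5.11%, 6.21% and 6.27% in CNS4Flox. By clonotypes it held 7.18%, 5.20%, 7.89%, 6.84% and 5.67% in CNS4KO, against 5.10%, 6.28%, 5.81%, 6.76% and 6.77% in CNS4Flox. CNS4KO replicate 3 was the highest library on both scales and the groups overlapped. The log2 fold change was -0.05 (SE 0.12) by counts and 0.09 (SE 0.12) by clonotypes, and the edgeR adjusted p-values were 0.791 and 0.637.

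TRBV4 held 4.82%, 2.80%, 3.09%, 4.29% and 2.93% of TRB counts in CNS4KO, against 3.14%, 3.53%, 3.63%, 3.75% and 3.11% in CNS4Flox. By clonotypes it held 2.64%, 2.84%, 3.25%, 3.57% and 2.95% in CNS4KO, against 3.21%, 3.47%, 3.38%, 3.77% and 3.22% in CNS4Flox. The scales ordered the libraries differently, since CNS4KO replicate 1 was the highest library by counts and the lowest by clonotypes. The log2 fold change was 0.06 (SE 0.14) by counts and -0.16 (SE 0.08) by clonotypes, and the edgeR adjusted p-values were 0.791 and 0.287. By counts the estimate was -0.06 without CNS4KO replicate 1, -0.0083 without CNS4KO replicate 4, and -0.06 with the largest clonotype of each gene left out of every library, an alternative chosen after seeing the data.

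TRBV5 held 4.44%, 5.86%, 5.54%, 7.21% and 5.66% of TRB counts in CNS4KO, against 5.77%, 5.95%, 6.45%, 5.61% and 5.59% in CNS4Flox. By clonotypes it held 5.71%, 6.67%, 6.46%, 7.73% and 6.50% in CNS4KO, against 6.09%, 6.54%, 6.99%, 6.09% and 6.08% in CNS4Flox. CNS4KO held both the lowest and the highest library, replicates 1 and 4, on both scales. The log2 fold change was -0.03 (SE 0.12) by counts and 0.06 (SE 0.09) by clonotypes, with edgeR adjusted p-values of 0.791 and 0.718. Such a share can differ through the number of cells or through the receptor RNA per cell, which these bulk libraries cannot tell apart.

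**Figure D1:**
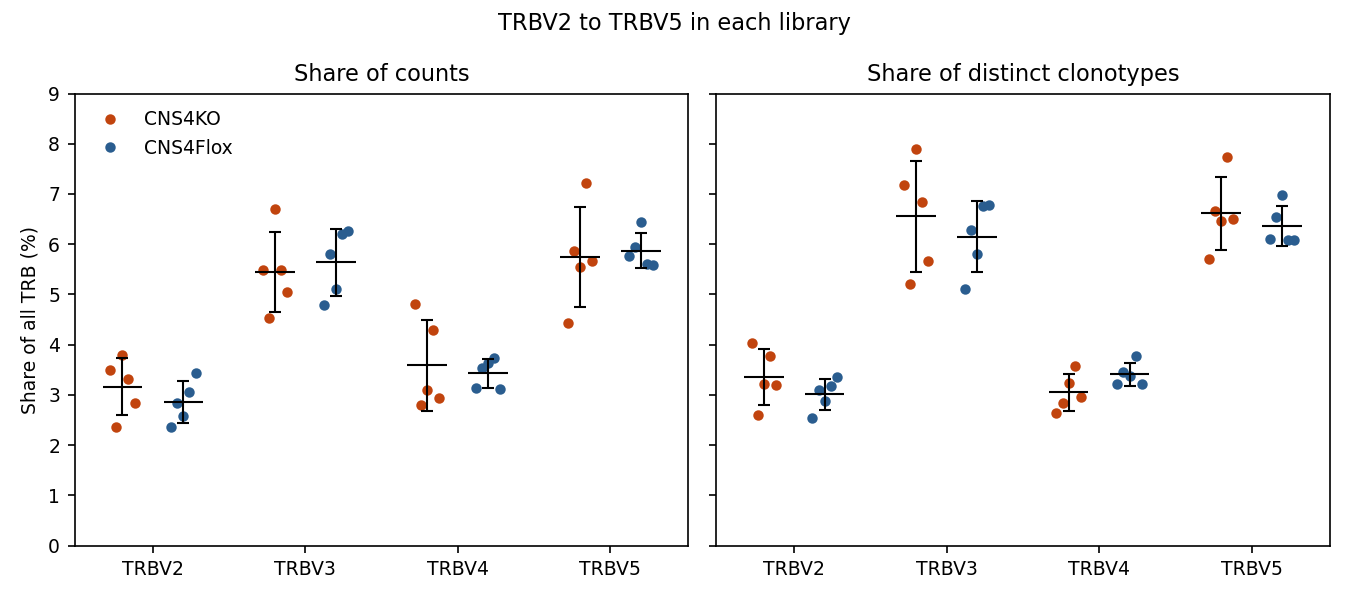
Share of TRB counts (left) and of TRB clonotypes (right), in percent, of each V gene in each library, with CNS4KO in red and CNS4Flox in blue. Points are libraries, horizontal lines are means of 5 libraries and bars are 1 SD. The groups overlap for every gene on both scales, and TRBV3 and TRBV5 lie above TRBV2 and TRBV4 in clonotypes.

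None of the 4 genes passed an adjusted p of 0.05 between the groups on either scale. By counts 0 of 22 TRBV genes passed (0%), with 1 at an unadjusted p under 0.05. By clonotypes 3 of 22 passed (13.6%), and none of these was TRBV2 to TRBV5. Approximate 95% intervals of the log2 fold change by clonotypes were -0.05 to 0.37 for TRBV2, -0.13 to 0.32 for TRBV3, -0.32 to 0.01 for TRBV4 and -0.11 to 0.22 for TRBV5. They use the SE and a normal quantile and are somewhat narrower than edgeR's test implies. The median log2 fold change by clonotypes was 0.08 over the 4 genes and -0.04 over all 22, and by counts it was 0.02 over the 4 genes and -0.04 over all 22. The groups did not overlap for 4.55% of the 22 genes by counts and for 18.2% by clonotypes, and all 4 genes described here overlapped.

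**Figure D2:**
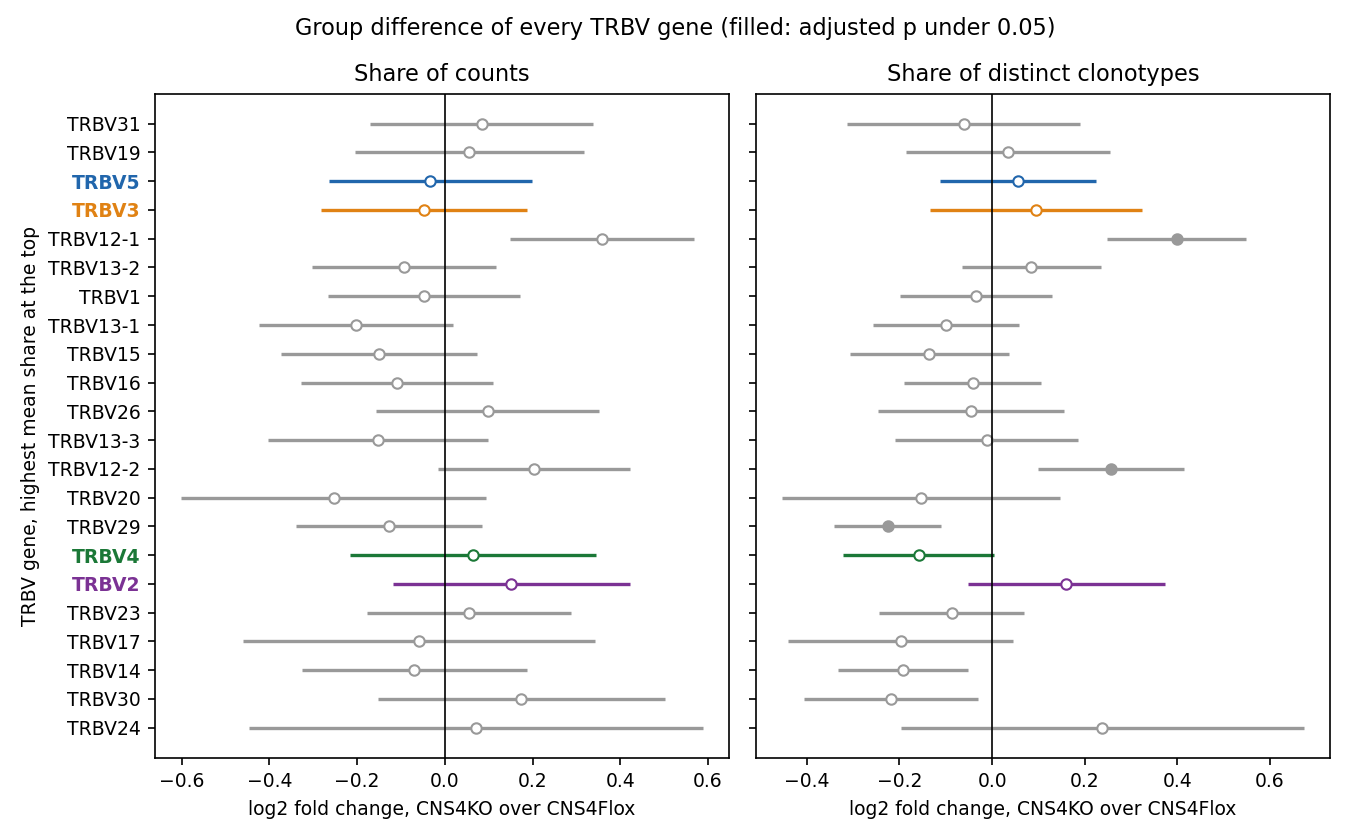
Log2 fold change, CNS4KO over CNS4Flox, of the share of every TRBV gene by counts (left) and by distinct clonotypes (right), from edgeR, with genes ordered by mean share of clonotypes. Lines are approximate 95% intervals from the SE and a normal quantile, somewhat narrower than edgeR's test implies. Filled points have an adjusted p under 0.05, and TRBV2 to TRBV5 are coloured. All 4 coloured intervals include 0 on both scales.

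Among the 4 genes, TRBV2 and TRBV3, whose segments are the closest neighbours, varied together over the 10 libraries in their share of clonotypes (r = 0.73), whereas the other 5 pairs gave r between -0.09 and 0.39. Among the other 18 TRBV genes, the share of TRBV4 was most like that of TRBV17 (r = 0.88, Spearman 0.92) and TRBV20 (r = 0.85, Spearman 0.92). TRBV5 was most like TRBV13-3 (r = 0.85, Spearman 0.73) and TRBV13-2 (r = 0.78, Spearman 0.75). TRBV3 was most like TRBV12-2 (r = 0.71) and TRBV20 (r = 0.57), and TRBV2 most like TRBV12-2 (r = 0.62) and TRBV24 (r = 0.42). Without the 2 libraries farthest from the median of the gene, r stayed at 0.93 for TRBV4 with TRBV17 but was 0.39 for TRBV2 with TRBV12-2, 0.27 for TRBV3 with TRBV12-2 and -0.65 for TRBV2 with TRBV24, so these relations rest on those libraries. All are shares of the same libraries that sum to 100%, picked as the highest of 18, and are given as a description.

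CDR3 length separated the 4 genes into pairs. The mean over distinct clonotypes was 14.30 ± 0.06 residues for TRBV2 and 14.36 ± 0.05 for TRBV5, against 13.71 and 13.68 for all other TRBV genes of the same libraries (SD, n = 10). TRBV2 was longer than the other genes by 0.592 residues and TRBV5 by 0.681, in 10 of 10 libraries each. TRBV3 and TRBV4 were shorter than the other genes, TRBV3 with a mean of 13.67 ± 0.05 and a difference of -0.0641 residues, and TRBV4 with a mean of 13.57 ± 0.04 and a difference of -0.163 residues, each in 10 of 10 libraries. All 4 differences had an adjusted p of 0.00269 in a two-sided exact sign-flip permutation test over 10 libraries, whose smallest raw p is 0.00195. Of the 22 TRBV genes 81.8% differed from the rest in this test, so a difference as such was common. Among the 4 genes described here the sizes ranged from -0.163 residues in TRBV4 to 0.681 in TRBV5. With entries of a count of 1 left out, the difference of TRBV3 no longer passed (-0.0228 residues, adjusted p = 0.640, exact test), and the other 3 did.

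The longer loops of TRBV2 and TRBV5 came with longer V matches. The V match covered a mean of 15.3 bases of the CDR3 in TRBV2 and 15.2 in TRBV5, which was 1.78 and 1.80 bases more than in the other TRBV genes, in 10 of 10 libraries each. In TRBV3 it covered 13.7 bases, 0.197 more than in the other genes, and in TRBV4 12.5 bases, 1.05 fewer. TRBV2 exceeded TRBV3 in CDR3 length in 10 of 10 libraries, by 0.634 ± 0.066 residues, and TRBV5 exceeded TRBV4 in 10 of 10, where TRBV4 minus TRBV5 was -0.795 ± 0.039 residues. TRBV2 was shorter than TRBV5 in 9 of 10 libraries, with a difference of -0.064 ± 0.073 residues.

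The most common CDR3 length was 15 residues in TRBV2, at 29.6% ± 1.81 of its clonotypes, and 14 residues in TRBV3 (33.9% ± 1.54), TRBV4 (32.3% ± 1.24) and TRBV5 (31.6% ± 1.26). Loops of 16 residues made up 13.2% ± 1.54 of TRBV2 and 11.8% ± 1.07 of TRBV5 clonotypes, against 4.89% ± 0.338 in TRBV3, 4.90% ± 0.554 in TRBV4 and 5.79% ± 0.230 in the other TRBV genes. At the short end, loops of 10 residues made up 1.88% ± 0.923 of TRBV4 clonotypes and 0.776% ± 0.063 of those of the other TRBV genes, and ranged over 0.589% to 3.77% of TRBV4 clonotypes between libraries. With any of the 12 J genes TRBV2 and TRBV5 were longer than the other TRBV genes in 10 of 10 libraries, by 0.442 to 0.880 residues in TRBV2 and 0.533 to 0.870 in TRBV5.

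**Figure D3:**
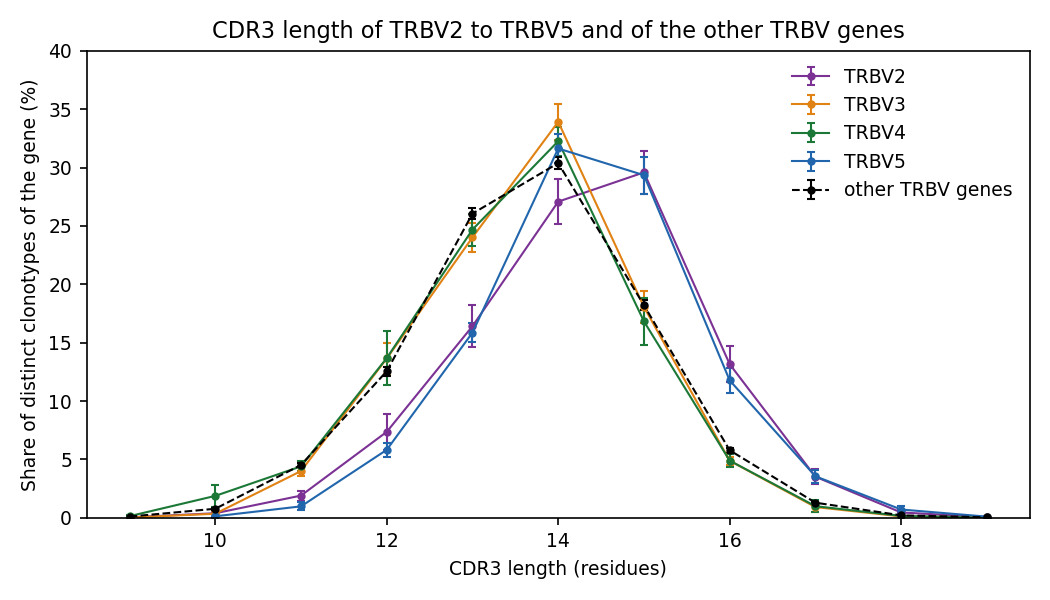
Share of the distinct clonotypes of a gene (percent) by CDR3 length (residues), as means of 10 libraries with 1 SD. The curves of TRBV2 and TRBV5 lie to the right of the dashed curve of all other TRBV genes, and those of TRBV3 and TRBV4 follow it.

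Between the groups no difference in CDR3 length passed the test for any of the 4 genes. TRBV2 averaged 14.28 ± 0.07 residues in CNS4KO and 14.32 ± 0.04 in CNS4Flox, TRBV3 13.66 ± 0.04 and 13.67 ± 0.06, TRBV4 13.56 ± 0.06 and 13.57 ± 0.03, and TRBV5 14.37 ± 0.06 and 14.35 ± 0.04 (SD over 5 libraries per group). The adjusted p was 0.931 for each in a two-sided exact permutation test over all assignments of libraries to groups, whose smallest raw p is 0.00794. None of the 22 TRBV genes passed this test (0%), and the largest difference among the 4 genes, CNS4KO minus CNS4Flox, was -0.0330 residues in TRBV2.

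The 4 genes also differed from the rest in which J gene they joined. TRBJ2-7, the J segment closest to the constant region of its cluster, was the most used J gene of all 4, with 18.3% ± 2.13 of TRBV2, 19.6% ± 1.10 of TRBV3, 20.2% ± 1.51 of TRBV4 and 19.8% ± 1.12 of TRBV5 clonotypes (SD, n = 10). The least used was TRBJ1-6 for TRBV2 (3.63% ± 0.694) and TRBV3 (1.57% ± 0.21), TRBJ1-5 for TRBV4 (2.65% ± 0.675) and TRBJ1-2 for TRBV5 (2.66% ± 0.421). Against all other TRBV genes of the same library, 32 of 48 V-J pairs passed an adjusted p of 0.05 in the exact sign-flip test, 14 higher and 18 lower. Over all TRBV genes 155 of 264 pairs passed (58.7%), so the share among the 4 genes, 66.7%, was near the background.

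TRBV5 joined TRBJ1-1 more often than the other genes did. The pair made up 13.3%, 9.68%, 12.3%, 12.6% and 12.4% of TRBV5 clonotypes in CNS4KO, and 11.95%, 12.3%, 13.2%, 14.5% and 13.0% in CNS4Flox. The mean of 12.5% compared with 9.07% in the other TRBV genes, a difference of 3.45 ± 0.996 percentage points that was positive in 10 of 10 libraries (adjusted p = 0.00621, exact sign-flip permutation test). TRBV2 ran the other way with this J gene, at 7.29% against 9.37% in the other genes, lower in 9 of 10 libraries (adjusted p = 0.00973, same exact test).

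TRBJ1-2 split the 4 genes as well. It was joined in 6.77% of TRBV3 and 6.51% of TRBV2 clonotypes, which was 2.46 ± 0.845 and 2.11 ± 0.959 percentage points above the other TRBV genes, but in 2.66% of TRBV5 and 3.40% of TRBV4 clonotypes, with differences of -1.93 ± 0.442 and -1.09 ± 0.665 points. Each direction held in 10 of 10 libraries (adjusted p = 0.00621, exact sign-flip permutation test). TRBV2 and TRBV3, the more distal pair, were high for TRBJ1-2, and TRBV4 and TRBV5 low.

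TRBJ2-4 was joined in 14.5% of TRBV3 and 14.3% of TRBV4 clonotypes, 2.90 ± 0.941 and 2.64 ± 1.41 points above the other genes, but in 10.2% of TRBV5 clonotypes, a difference of -1.74 ± 0.608 points. TRBJ2-5 was joined in 15.6% of TRBV4 and 14.2% of TRBV5 clonotypes, 2.87 ± 1.40 and 1.54 ± 1.16 points above the other genes, and in 11.01% of TRBV3 clonotypes, a difference of -1.89 ± 0.767 points. The values of both J genes held their direction in 10 of 10 libraries. TRBV3 stood out with TRBJ1-6, which it joined in 1.57% of clonotypes (range 1.26% to 1.88%) against 3.68% in the other genes, a difference of -2.12 ± 0.315 points. TRBV5 with TRBJ2-1 (8.53%, difference -2.04 ± 0.643 points) and TRBV4 with TRBJ1-4 (4.13%, difference -1.89 ± 0.841 points) were lower in 10 of 10 libraries. All had an adjusted p of 0.00621 in the exact sign-flip permutation test. With entries of a count of 1 left out, TRBJ2-4 in TRBV3, TRBJ1-4 and TRBJ2-5 in TRBV4 and TRBJ2-4 and TRBJ2-5 in TRBV5 kept their direction but no longer passed (adjusted p 0.0566 to 0.622, exact test), nor did TRBJ1-1 in TRBV2 and TRBJ1-2 in TRBV4.

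**Figure D4:**
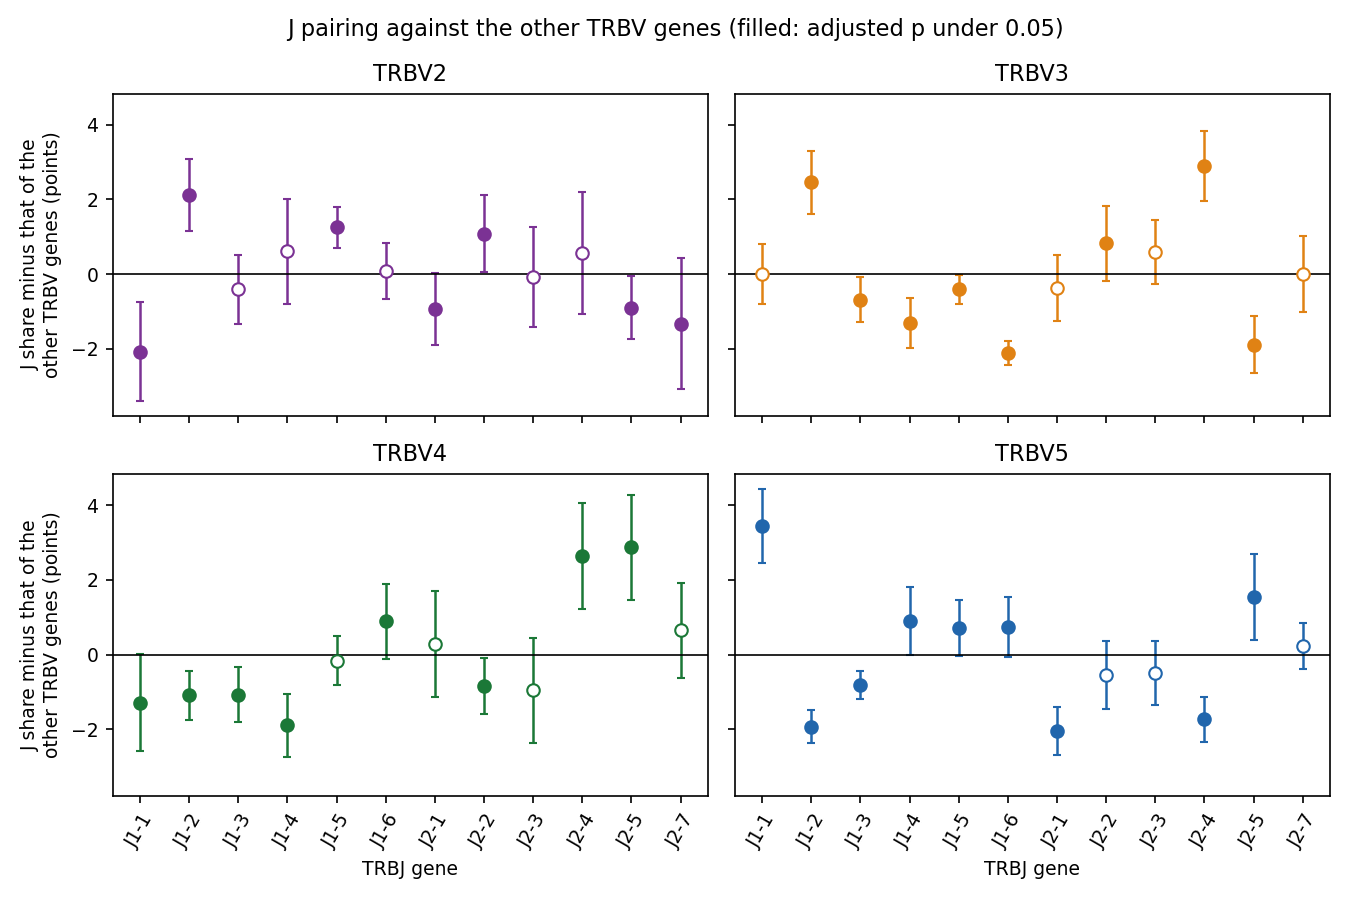
Share of each J gene among the clonotypes of TRBV2, TRBV3, TRBV4 and TRBV5, minus its share among all other TRBV genes of the same library, in percentage points. Points are means of 10 libraries, bars are 1 SD of the difference, and filled points have an adjusted p under 0.05. TRBV5 with J1-1 is the highest point at 3.45, and J1-2 is high for TRBV2 and TRBV3 and low for TRBV4 and TRBV5.

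Summed over the TRBJ2 cluster, TRBV4 joined a TRBJ2 gene in 72.9% ± 2.16 of clonotypes and TRBV3 in 70.3% ± 1.68, which was 4.63 and 2.07 points above the other TRBV genes in 10 of 10 libraries. TRBV5 joined one in 65.5% ± 2.09, 3.04 points below them (-3.04) in 9 of 10 libraries. The adjusted p-values were 0.00358, 0.00358 and 0.00661 in the exact sign-flip permutation test, in which 86.4% of TRBV genes passed. TRBV2 had 66.9% ± 2.54 and a difference of -1.58 points that did not pass (adjusted p = 0.0859, exact test), except without CNS4Flox replicate 2 (-1.91 points, adjusted p = 0.0452). For TRBV4 the difference shrank to 0.0630 points when clonotypes were weighted by their counts (adjusted p = 1.0, exact test; 0.00661 to 1.0 over its alternatives). With entries of a count of 1 left out it was 1.99 points for TRBV4 and 3.31 for TRBV3, and neither passed (adjusted p = 0.384 and 0.0895, exact test).

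Between the groups no V-J pair of the 4 genes passed, with 0 of 48 tested, 3 at an unadjusted p under 0.05 and a smallest adjusted p of 0.21 in edgeR. Over all TRBV genes 3 of 249 pairs passed (1.2%), all of them TRBV12-1 pairs. TRBV2 with TRBJ1-4 had the smallest p, with 5.26%, 9.50%, 6.44%, 7.95% and 7.18% of TRBV2 clonotypes in CNS4KO and 5.46%, 5.67%, 6.80%, 5.25% and 6.05% in CNS4Flox. The groups overlapped, and the log2 fold change of its share of TRB clonotypes was 0.44 (SE 0.16). TRBV2 with TRBJ2-3 had a log2 fold change of 0.39 and an edgeR adjusted p of 0.358. The TRBJ2 share of the 4 genes gave adjusted p-values of 0.733 to 0.927 between the groups in the exact permutation test, which no TRBV gene passed (0%).

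The number of inserted bases, counted between the V, D and J matches, was lowest in TRBV3. TRBV3 clonotypes had a mean of 3.52 ± 0.083 inserted bases, 0.342 fewer than the other TRBV genes (-0.342) in 10 of 10 libraries. TRBV4 had 4.06 ± 0.177 and TRBV5 4.001 ± 0.078, which was 0.227 and 0.170 more than the other genes, in 9 and 10 of 10 libraries. The adjusted p-values were 0.00286 for TRBV3, 0.00537 for TRBV4 and 0.00286 for TRBV5 in the exact sign-flip permutation test, which 77.3% of TRBV genes passed, and TRBV2 with 3.90 ± 0.153 did not pass (adjusted p = 0.305, exact test). TRBV3 and TRBV4 did not pass with entries of a count of 1 left out (-0.227 and 0.228 bases, adjusted p = 0.0921 and 0.117, exact test). Entries with the end of TRBJ1-6 came under another J name and kept that J match, so their inserted bases may be miscounted. TRBJ1-6 made up 1.57% of TRBV3, 3.63% of TRBV2, 4.25% of TRBV5 and 4.41% of TRBV4 clonotypes. Its effect on inserted bases was not tested. The files name the D gene TRBD1 in 62.6% ± 2.97 of TRBV2, 62.5% ± 1.497 of TRBV3, 60.1% ± 1.74 of TRBV5 and 53.8% ± 2.44 of TRBV4 clonotypes. Inserted bases averaged 3.84 to 4.05 over the 3 genes other than TRBV3 in CNS4KO and 3.95 to 4.07 in CNS4Flox, and 3.50 for TRBV3 in CNS4KO and 3.55 in CNS4Flox. None of the 4 genes passed the test between the groups (adjusted p 0.924 to 0.978, exact permutation test, 0% of TRBV genes passing).

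Most clonotypes of the 4 genes had a count of 1, and this share averaged lower in CNS4KO. It was 80.5% ± 3.65 of TRBV2 clonotypes in CNS4KO and 89.9% ± 2.49 in CNS4Flox, 81.6% ± 2.29 and 89.2% ± 2.43 for TRBV3, 72.5% ± 6.25 and 83.7% ± 3.77 for TRBV4, and 77.7% ± 6.10 and 88.4% ± 3.90 for TRBV5 (SD over 5 libraries per group). These values depend on depth, so the number of distinct clonotypes was compared at equal counts of the gene, at the smallest count of any library (454 for TRBV2, 870 for TRBV3, 537 for TRBV4 and 1125 for TRBV5). Whether a count is a read or a molecule is not given, so equal counts need not mean equal numbers of molecules or cells.

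At equal counts all 4 genes had fewer distinct clonotypes in CNS4KO. TRBV3 was expected to give 737, 717, 746, 741 and 764 distinct clonotypes in CNS4KO, against 809, 801, 790, 811 and 804 in CNS4Flox. TRBV5 was expected to give 872, 919, 897, 885 and 987 in CNS4KO, against 1033, 1033, 991, 1019 and 1012 in CNS4Flox. For both genes every CNS4KO library lay below every CNS4Flox library. The means were 741 ± 16.9 and 803 ± 8.43 for TRBV3 and 912 ± 45.2 and 1017 ± 17.2 for TRBV5, with an adjusted p of 0.0104 each in the two-sided exact permutation test.

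TRBV2 was expected to give 361, 358, 278, 362 and 400 distinct clonotypes in CNS4KO, against 427, 413, 404, 406 and 379 in CNS4Flox. TRBV4 was expected to give 215, 391, 406, 357 and 431 in CNS4KO, against 485, 466, 424, 473 and 470 in CNS4Flox. In each of these genes only CNS4KO replicate 5 reached into the CNS4Flox range, and TRBV2 in CNS4KO replicate 3 and TRBV4 in CNS4KO replicate 1 were the lowest libraries. The means were 352 ± 44.7 and 406 ± 17.4 for TRBV2 and 360 ± 85.4 and 464 ± 23.1 for TRBV4, with an adjusted p of 0.0175 each in the exact permutation test. The TRBV2 difference of -54.1 was -35.6 without CNS4KO replicate 3, and the TRBV4 difference of -103.7 was -67.5 without CNS4KO replicate 1. Both still passed at an adjusted p of 0.05.

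These differences were not particular to the 4 genes. All 21 TRBV genes with at least 100 counts in every library passed the same test (100%), each lower in CNS4KO, and the groups did not overlap in 76.2% of them. The ratio of CNS4KO to CNS4Flox was 0.776 to 0.923 over the 4 genes and 0.692 to 0.936 over the other 17. For TRBV2 the adjusted p was 0.05 without CNS4Flox replicate 1, 2 or 3, so the gene no longer passed there (exact permutation test). With entries of a count of 1 left out, 0 of the TRBV genes that still had 100 counts in every library passed. TRBV2 no longer had them and was not tested. At the smaller equal counts of this setting the difference was -4.004 clonotypes for TRBV4. It was 16.3 for TRBV3 and 31.7 for TRBV5, higher in CNS4KO.

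The libraries with the lowest TRBV4 and TRBV2 values at equal counts held the largest clonotypes of these genes. In CNS4KO replicate 1 the printed TRBV4 clonotype with TRBJ1-1 had 506 of 1301 TRBV4 counts, a share of 38.9% (95% Wilson interval 36.3% to 41.6%), and 1.87% of all TRB counts of the library. Without it TRBV4 held 3.0003% of TRB counts in that library, against 4.82% with it. In CNS4KO replicate 3 the printed TRBV2 clonotype with TRBJ2-5 had 240 of 956 TRBV2 counts, or 25.1% (22.5% to 27.9%), and TRBV2 held 2.87% of TRB counts without it. Each was found in a single library and had no count in the other 9, where a count of 0 allows a share of up to 0.00861% to 0.0156% of TRB counts.

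The largest TRBV4 clonotype had 506, 21, 9, 47 and 13 counts in CNS4KO, against 5, 10, 42, 6 and 6 in CNS4Flox. The largest TRBV2 clonotype had 16, 5, 240, 26 and 9 counts in CNS4KO, against 3, 15, 10, 12 and 75 in CNS4Flox. In both genes the groups overlapped, and single libraries held far larger clones than the rest. The largest TRBV3 clonotype had 8 to 12 counts in CNS4KO and 3 to 8 in CNS4Flox, and the largest TRBV5 clonotype 6 to 18 in CNS4KO and 4 to 7 in CNS4Flox, so neither gene had a clonotype above 18 counts.

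Clonotypes with at least 5 counts held a median of 13.6% of TRBV2 counts in CNS4KO (range 3.30% to 34.4%) and 3.995% in CNS4Flox (0% to 10.1%). The same median was 12.7% in CNS4KO (6.17% to 56.5%) and 1.47% in CNS4Flox (0.768% to 15.3%) for TRBV4. For TRBV3 it was 4.60% in CNS4KO (2.46% to 7.99%) and 0.386% in CNS4Flox (0% to 1.84%), and for TRBV5 1.96% in CNS4KO (1.67% to 11.7%) and 0.327% in CNS4Flox (0% to 1.83%). This measure was not corrected for depth and not tested.

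Some TRBV2 clonotypes rest on a short V match. The largest TRBV2 clonotype of CNS4Flox, with 75 counts in replicate 5, matched the V segment over its first 5 bases only. It was among 52 TRBV2 entries in 9 libraries that began with the 12 bases tgtgctctctgg and joined 12 J genes. These held 216 counts, 2.68% of TRBV2 counts, and 28 further entries with the same start were named TRBV13-3. The printed TRBV3 clonotype of CNS4KO, with 10 counts in replicate 2, also matched over 5 bases. Entries with fewer than 9 matched V bases held 2.96% of TRBV2 counts, 0.719% of TRBV3, 1.13% of TRBV4 and 0.160% of TRBV5 counts, and without them the log2 fold change of TRBV2 by counts was 0.19 and that of TRBV4 0.06.

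Sharing between libraries was low, and lowest in TRBV2. With all libraries brought to 19199 TRB counts, 3.25% ± 1.16 of TRBV2 clonotypes were found in at least 1 other library, against 5.76% of the clonotypes of the other TRBV genes (SD, n = 10). The difference of -2.51 ± 0.655 percentage points was negative in 10 of 10 libraries (adjusted p = 0.00358, exact sign-flip permutation test). A shared clonotype enters the value of every library that holds it, so the 10 values are not independent. The p-values of sharing may therefore be too small. Without 1 library at a time, the TRBV2 difference ran from -2.50 to -2.11 points and passed each time. It also passed without CNS4KO replicate 5 and CNS4Flox replicate 3. With entries of a count of 1 left out it was -1.22 points and no longer passed (adjusted p = 0.0812, exact test). TRBV3 with 5.46% ± 0.702, TRBV4 with 5.79% ± 1.17 and TRBV5 with 5.66% ± 0.864 did not pass, with adjusted p-values of 0.430, 0.636 and 0.958 in the same exact test, whereas 68.2% of TRBV genes passed. TRBV3 passed without CNS4Flox replicate 4, at -0.633 points (adjusted p = 0.0132, exact test). With entries of a count of 1 left out, TRBV3 (-1.46 points) and TRBV4 (1.15 points) passed, with adjusted p-values of 0.0107 and 0.0430 in the exact test. With clonotypes taken by amino acids TRBV3 was higher than the other genes by 1.44 points, and TRBV4 and TRBV5 differed from them by -3.12 and -0.852 points (adjusted p = 0.00758, 0.00269 and 0.0491, exact test). The direction of TRBV3 and TRBV4 therefore depended on how clonotypes were defined. TRBV2 was below TRBV3, TRBV4 and TRBV5 in 10 of 10 libraries each, with mean differences of -2.21 points from TRBV3, -2.54 from TRBV4 and -2.41 from TRBV5.

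The share of TRBV2 clonotypes found elsewhere was 3.42%, 2.60%, 2.38%, 2.23% and 5.84% in CNS4KO, against 3.17%, 2.81%, 4.71%, 2.93% and 2.39% in CNS4Flox. The highest libraries were CNS4KO replicate 5 and CNS4Flox replicate 3, the pair that stood apart. These libraries shared 25 TRBV2 clonotypes with each other where other pairs shared 0 to 9, 24 of TRBV3 (2 to 18 in other pairs), 29 of TRBV4 (0 to 12) and 51 of TRBV5 (4 to 29). The cause was not tested.

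Between the groups the shared percentage averaged 3.30% ± 1.495 in CNS4KO and 3.20% ± 0.890 in CNS4Flox for TRBV2, 5.48% ± 0.469 and 5.45% ± 0.942 for TRBV3, 6.03% ± 1.12 and 5.54% ± 1.30 for TRBV4, and 6.15% ± 0.721 and 5.17% ± 0.749 for TRBV5 (SD over 5 libraries per group). None of the 4 genes passed (adjusted p 0.567 to 0.944, exact permutation test), nor did any other TRBV gene (0%). Without CNS4KO replicate 5 and CNS4Flox replicate 3 the TRBV2 difference, CNS4KO minus CNS4Flox, was -0.11 points in place of 0.09.

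**Figure D5:**
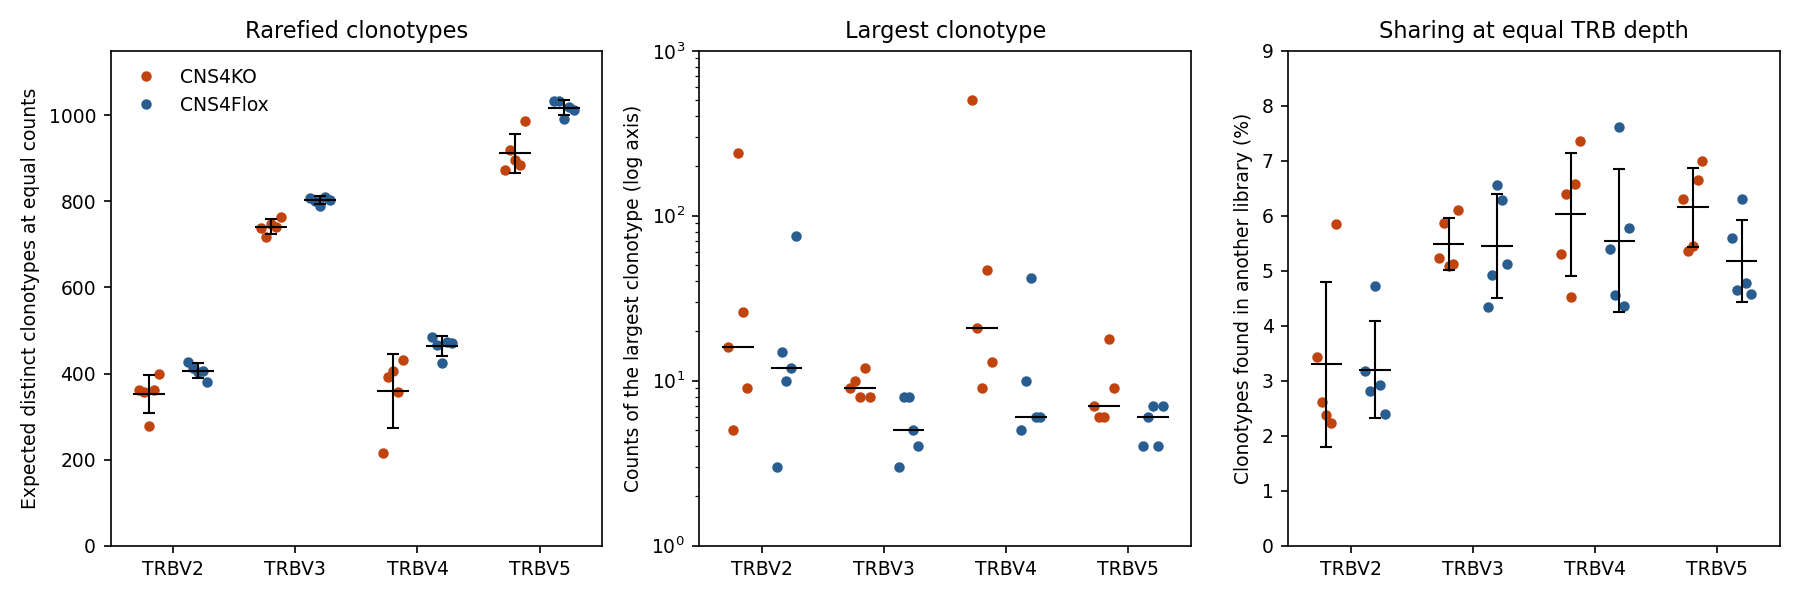
Expected number of distinct clonotypes at equal counts of a gene (left), counts of its largest clonotype on a log axis (middle), and share of its clonotypes found in another library at equal TRB depth, in percent (right), for each library, with CNS4KO in red and CNS4Flox in blue. Horizontal lines are means with bars of 1 SD, except in the middle, where they are medians. CNS4KO lies lower on the left for all 4 genes, TRBV4 in CNS4KO replicate 1 reaches 506 counts, and TRBV2 lies lowest on the right.

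Over full tables, 34821 of 35955 distinct nucleotide clonotypes of the 4 genes (96.8%) occurred in a single library, and none in more than 4. Over all TRB nucleotide clonotypes 96.6% occurred in a single library. By amino acids 10.03% of 32143 clonotypes occurred in at least 2 libraries, with 7.21% for TRBV2, 11.5% for TRBV3, 9.12% for TRBV4 and 10.6% for TRBV5, and over all TRB clonotypes it was 10.5%. The most widely found amino acid clonotypes reached 5 libraries in TRBV2, 7 in TRBV3 and TRBV4 and 8 in TRBV5, and 92 clonotypes of the 4 genes were in at least 5 libraries. These 92 were 0.286% of the amino acid clonotypes of the 4 genes, against 0.406% over all TRB.

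The most widely found TRBV5 clonotype, with TRBJ1-1, had 3, 0, 2, 2 and 1 counts in CNS4KO and 1, 1, 1, 1 and 0 in CNS4Flox. It was encoded by 4 nucleotide forms, of which the printed form occurred in 4 libraries. The printed TRBV4 clonotype with TRBJ2-7 had 1, 2, 1, 4 and 0 counts in CNS4KO and 1, 5, 0, 0 and 2 in CNS4Flox, from 4 nucleotide forms. The TRBV3 clonotype with TRBJ1-1 had 1, 0, 0, 2 and 2 counts in CNS4KO and 1, 1, 1, 1 and 0 in CNS4Flox and came from 7 nucleotide forms, and the TRBV2 clonotype with TRBJ2-7 had 6 counts in each group over 5 libraries, from 6 forms. Each of these 4 clonotypes had at most 5 counts in a library and occurred in both groups.

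None of the 92 clonotypes passed the test between the groups at an adjusted p of 0.05, with 3 higher and 3 lower at an unadjusted p under 0.05 and a smallest adjusted p of 0.300 in edgeR. Over all TRB 0 of 666 clonotypes passed (0%), with 37 at an unadjusted p under 0.05. The smallest p belonged to a TRBV3 clonotype with TRBJ1-1 that had no count in any CNS4KO library and 2, 1, 2, 1 and 1 counts in CNS4Flox. The next belonged to a TRBV5 clonotype with TRBJ1-1 that had 2, 3, 1, 6 and 2 counts in CNS4KO and 0, 0, 1, 0 and 0 in CNS4Flox (edgeR adjusted p = 0.801). Both are shown in their most frequent nucleotide form, and with at most 6 counts in a library neither passed.
TRBV3 with TRBJ1-1, counts in CNS4Flox only: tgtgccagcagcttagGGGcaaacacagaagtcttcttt
TRBV5 with TRBJ1-1, most counts in CNS4KO: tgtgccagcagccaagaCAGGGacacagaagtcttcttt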

How the data were processed

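T cell receptor alpha and beta transcripts of splenic Treg cells were amplified from total RNA in 10 libraries, 5 CNS4KO and 5 CNS4Flox by the strain label, with replicates numbered in sample order. The authors deposited a clonotype table per library. Per the file headers, its count column is a whole number per clonotype, its fraction column is that count over the library's total of both chains, and position columns give where the V, D and J matches end or start. Whether a count is a read or a molecule, the aligner and the clonotype caller are not given in the sources used here. The submitters' processing notes name mm10.

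Beta entries were taken by 10 CDR3 ends, since alpha chains also carry beta names. Entries with the end of TRBJ1-6, a name that does not occur, were set apart as that gene. J name and end then matched in 99.9% of the entries of the 4 genes. Entries set as TRBJ1-6 match by construction. TRBJ1-3, TRBJ2-3 and TRBJ2-4 have the same end, so a swap among their names would not show. Shares, V-J pairs and amino acid clonotypes were tested with edgeR 4.0.16 (quasi-likelihood, TRB total as library size, no TMM) for features with at least 10 counts in at least 5 libraries, or clonotypes in at least 5 libraries, with Benjamini-Hochberg adjustment over all TRBV features. Values per gene and library were compared by two-sided exact permutation tests between groups (smallest p 0.00794) and exact sign-flip tests within libraries (smallest p 0.00195). CDR3 length, J use and inserted bases count each distinct clonotype once. The D match always leaves a base before J, so inserted bases include at least 1 where a D was named. DESeq2 1.42.0, TMM, no filter, other clonotype definitions and left-out libraries were alternatives. In simulated data with 4 of 22 genes changed 2-fold by counts, 100% were recovered. For V-J pairs changed 2-fold it was 97.5%, with 1 false call. For amino acid clonotypes changed 16-fold it was 94.9%, with 2 false calls. The simulated spread was fixed in advance, and observed log2 fold changes by counts ran only from -0.253 to 0.358. These recoveries therefore do not show the power for changes of the observed size. Fits ran in R 4.3.3. Exact tests ran in purpose-written code with numpy 2.4.6, and Wilson intervals in scipy 1.17.1. Tables were made in pandas 2.3.3 under Python 3.11.15, and plots in matplotlib 3.10.9.

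The 4 genes and all lists were chosen with earlier results of these data known. Named V-J pairs are each gene's most and least used J gene, the 10 smallest p against the other TRBV genes and the 2 smallest p between groups. Named clonotypes are, per gene, the 3 in most libraries and the one with the highest share of a library in each group, and the 2 with the smallest p between groups. TRBV2 with TRBJ1-1, TRBV3 with TRBJ2-5, TRBV4 with TRBJ1-2 and TRBV5 with TRBJ2-4 and TRBJ2-5 were named after their values were seen. Depth per library was 61793 to 95853 counts, of which 19199 to 34833 were TRB.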

Additional observations from a re-analysis of the deposited data

Results flagged for a closer look

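TRBV5 had 1.55 counts per clonotype in CNS4KO replicate 4, where the other CNS4KO libraries had 1.22 to 1.31, a gap above the 95% critical value of Dixon's test for 5 samples (0.71). It was 1 such library among 64 sets of 5 libraries examined, of which chance alone gives about 1 in 20. In that library 43 TRBV5 clonotypes had at least 5 counts and held 11.7% of TRBV5 counts, and no clonotype had more than 18.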

How the results depend on the processing

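Of 958 comparisons of single values with an alternative, 861 kept direction and side of the threshold, 27 lost and 6 gained a call in the same direction, and 64 turned direction. Of the 64, 62 were of values that had not passed the test and 2 were rarefied clonotypes, and 3 passed in the new direction, namely sharing of TRBV3 and TRBV4 by amino acids and TRBV5 with TRBJ2-7 without entries of a count of 1. No paired analysis was possible because the replicate numbers only name the samples in order. Counts per library limit single clonotypes, and DESeq2 passed 0 amino acid clonotypes as well. Where a value changed, the cause was not tested. Leaving out the largest clonotypes or short V matches was chosen after seeing the data. Among all TRBV genes, 0 passed by counts, against 1 with DESeq2, 1 without each gene's largest clonotype and 0 to 2 without 1 library (2 without CNS4KO replicate 4). By clonotypes 3 passed, against 1 without CNS4KO replicate 5 and CNS4Flox replicate 3 (here the pair), 1 without entries of a count of 1 (here singletons) and 1 to 3 without 1 library. Of V-J pairs between the groups 3 passed, against 1 without the pair, 5 with DESeq2, 1 by summed counts and 1 to 3 without 1 library. Without singletons 0 genes passed in rarefied clonotypes, where TRBV2 had too few counts to be tested. Of the tests against the other V genes 41 passed in place of 69, and 74 V-J pairings in place of 155.

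For log2 fold changes by counts, TRBV3 was 0.0501 without singletons, TRBV4 -0.0646 without the largest clonotype, and TRBV5 0.00849 without the pair, 0.165 without singletons and 0.000839 without the largest clonotype. The CNS4KO minus CNS4Flox difference in CDR3 length was 0.05002 for TRBV2 without singletons and 0.0932 weighted by count, 0.00275 for TRBV3 without the pair, and 0.00183 for TRBV4 without the pair and 0.11 without singletons. In rarefied clonotypes it was 16.3 for TRBV3 and 31.7 for TRBV5 without singletons. In sharing it was -0.109 for TRBV2 without the pair, and without singletons -1.44 for TRBV2, -0.227 for TRBV3 and -0.191 for TRBV4. In TRBJ2 share it was 0.899 for TRBV3 without singletons and -5.47 for TRBV4 weighted by count, and in inserted bases 0.113 for TRBV4 weighted by count and 0.102 for TRBV5 without singletons. Sharing minus the other V genes was 0.0367 without the pair and 1.44 by amino acids for TRBV3, -3.12 by amino acids and -0.0479 at full depth for TRBV4, and 0.125 without the pair and 0.192 at full depth for TRBV5. Pairing minus the other V genes was -0.73 for TRBV2 with TRBJ1-6, -0.966 for TRBV4 with TRBJ2-7 and -2.42 for TRBV5 with TRBJ2-7 without singletons, and -0.0661 for TRBV3 with TRBJ2-7 without the pair.

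Without 1 library at a time, log2 fold changes by counts ran from -0.132 to 0.0113 for TRBV3, -0.0640 to 0.141 for TRBV4 and -0.129 to 0.0470 for TRBV5, and by clonotypes from -0.0067 to 0.10 for TRBV5. The CNS4KO minus CNS4Flox difference ran from -0.0312 to 0.0072 in the CDR3 length of TRBV4, in sharing from -0.251 to 0.336 for TRBV2, -0.443 to 0.275 for TRBV3 and -0.149 to 1.07 for TRBV4, and in inserted bases from -0.121 to 0.0345 for TRBV4 and -0.049 to 0.0045 for TRBV5. Against the other V genes, sharing ran from -0.633 to 0.127 for TRBV3, -0.0657 to 0.289 for TRBV4 and -0.358 to 0.114 for TRBV5, and pairing from -0.062 to 0.191 for TRBV2 with TRBJ1-6 and -0.171 to 0.202 for TRBV3 with TRBJ2-7.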
